A study of Mus musculus with 21 samples.

Results

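The genes of oxidative phosphorylation were described here in mouse forebrain. Members were the protein-coding genes of the count matrix whose Ensembl symbol starts with Nduf, Sdh, Uqcr, Cox or Atp5, together with the protein-coding genes of the mitochondrial chromosome (symbols starting with mt-), each with at least 10 counts in at least 3 mice. The symbol rule named 120 genes, and 118 of them passed the count limit, out of 55401 genes in the matrix, of which 23246 passed the same limit. The members were 105 genes of the nucleus and 13 of the mitochondrial genome. The 2 candidates outside the limit, Cox8c and a second Ensembl identifier of Atp5o, had 0 counts in every mouse, whereas the member with the fewest counts, Cox7b2, had 0 to 32 counts and 10 or more counts in 15 mice.

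Forebrain RNA of 21 mice in 6 groups was measured. The parental mice, E2H, E3H and E4H (3 mice each), carry a human APOE2, APOE3 or APOE4 allele in place of mouse Apoe on both chromosomes, and were 9 to 10 months old. The 3 groups with tau, PS/E2H, PS/E3H and PS/E4H (PE2H, PE3H and PE4H in the labels, 4 mice each), have the same APOE genotypes and in addition 1 copy of the PS19 transgene, which makes human tau with the P301S mutation from the mouse prion promoter, and were taken when both hindlimbs were paralysed. The transgene, paralysis, the age at sampling and the mixed B6/C3H background that the PS19 line brings to the cross therefore cannot be told apart between PS19 and parental mice. In the survival cohorts of the study, paralysis came later in PS/E3H than in PS/E2H and PS/E4H mice. The study calls the E2H and E3H mice age-matched to their PS19 groups. The ages of the sequenced PS19 mice are not given in the sources used here. APOE genotype and age at sampling therefore cannot be told apart among the PS19 groups, nor in the interactions below. According to the methods all mice were male except 1 E4H, 1 PS/E2H and 2 PS/E4H mice, so sex and group are partly confounded. The libraries held 59265459 to 75932183 counts (median 63751715), were made from poly(A) RNA, and are separate mice. Values are given as CPM, counts scaled to a common library size with TMM factors, unless FPKM, which also divides by transcript length, is named.

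The respiratory chain moves electrons from NADH through complex I (NADH dehydrogenase) and from succinate through complex II to ubiquinone, then through complex III and cytochrome c to complex IV (cytochrome c oxidase), which reduces oxygen. The protons pumped on the way drive complex V, the ATP synthase. All subunits of complex II and most subunits of the others are made from nuclear genes, while the mitochondrial genome, copied as long transcripts that are cut at the tRNAs, encodes core subunits of complexes I, III, IV and V, so the complexes need the products of both genomes. Neurons depend heavily on this pathway for ATP.

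Pairs of the mitochondrial reading frames overlap on the same messenger RNA, and fragments from an overlap cannot be given to 1 gene alone. The stretches are shown because mt-Nd4l and mt-Atp8 were lower in 2 PS/E2H mice, described below, than in every other mouse. Whether the overlaps had a part in this was not tested. The last 43 bases of mt-Atp8 (MT, 7927 to 7969, of its 204 bases) are the first 43 of mt-Atp6, and the last 7 bases of mt-Nd4l (MT, 10167 to 10173, of its 297 bases) are the first 7 of mt-Nd4. Both stretches are on the plus strand of GRCm38, with the overlap in capitals and 12 bases on each side.
mt-Atp8 and mt-Atp6 (MT, 7915 to 7981): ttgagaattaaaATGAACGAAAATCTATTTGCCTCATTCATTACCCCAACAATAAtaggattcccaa
mt-Nd4l and mt-Nd4 (MT, 10155 to 10185): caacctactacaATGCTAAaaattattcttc

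Nuclear members are known targets of the factors NRF1, GABPA and YY1, and their promoters were searched on both strands for GCATGCGC (an NRF1 half-site), CCGGAAG (an ETS site, bound by GABPA) and AAGATGGC (YY1). The windows ran from 250 bases before to 50 after each start in RefSeq (GRCm38.p6), which can differ from the gene starts of GENCODE used for positions in the results. Of the 105 nuclear members, 85 had an entry, with 91 promoters. GCATGCGC was in 12 of these (13.2%, against 2.71% of all 32851 promoters of that length), CCGGAAG in 27 (29.7%, against 8.86%) and AAGATGGC in 12 (13.2%, against 2.75%). The 250 bases before the start are printed for 4 members, with GCATGCGC or its reverse in capitals. Sdhb and Cox7a1 passed the test in PS/E4H mice below, Ndufa9 also in PS/E3H mice, and Atp5k was among the members that differed most between E2H and E3H mice. In Sdhb the half-site began 54 bases before the start and in Atp5k a palindromic pair lay between 50 and 41 bases before it. The printed Ndufa9 and Cox7a1 stretches held none of the searched words. In the 50 bases after the start, which were searched but are not printed, Ndufa9 held AAGATGGC. Sdhb held CCGGAAG there and Atp5k its reverse.
Ndufa9 (chr6:126849145-126849394, minus strand): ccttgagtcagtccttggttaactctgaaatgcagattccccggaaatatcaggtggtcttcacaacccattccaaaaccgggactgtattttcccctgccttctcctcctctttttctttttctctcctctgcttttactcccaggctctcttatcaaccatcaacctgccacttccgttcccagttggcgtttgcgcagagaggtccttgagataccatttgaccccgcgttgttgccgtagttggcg
Sdhb (chr4:140961021-140961270, plus strand): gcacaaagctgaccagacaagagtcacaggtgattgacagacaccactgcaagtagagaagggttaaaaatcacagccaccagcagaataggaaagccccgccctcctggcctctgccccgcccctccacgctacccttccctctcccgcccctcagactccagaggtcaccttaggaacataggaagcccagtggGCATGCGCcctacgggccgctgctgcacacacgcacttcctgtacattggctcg
Cox7a1 (chr7:30183921-30184170, plus strand): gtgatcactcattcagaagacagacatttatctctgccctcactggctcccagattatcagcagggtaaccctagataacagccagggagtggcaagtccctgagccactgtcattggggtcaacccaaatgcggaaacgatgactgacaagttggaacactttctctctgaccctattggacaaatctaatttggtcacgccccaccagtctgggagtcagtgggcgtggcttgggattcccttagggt
Atp5k (chr5:108434400-108434649, minus strand): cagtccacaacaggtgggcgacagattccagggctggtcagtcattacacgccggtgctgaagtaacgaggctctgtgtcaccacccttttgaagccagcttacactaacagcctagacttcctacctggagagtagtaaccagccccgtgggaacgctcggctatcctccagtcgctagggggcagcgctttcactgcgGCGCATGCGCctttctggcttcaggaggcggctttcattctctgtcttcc

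The members spanned a wide range of levels. The median FPKM over the 21 mice was 954 to 15805 for the 13 mitochondrial mRNAs and 0.325 to 286 for the 105 nuclear mRNAs, so the lowest mitochondrial mRNA (mt-Nd3) lay above the highest nuclear one. mt-Co1, the catalytic core of complex IV, was highest at 15805 FPKM, followed by mt-Cytb of complex III (7004 FPKM) and mt-Atp6 of complex V (6625 FPKM). Among nuclear members, the alpha and beta subunits of the ATP synthase, Atp5a1 (286 FPKM) and Atp5b (280 FPKM), and the complex IV subunits Cox8a (283 FPKM) and Cox4i1 (256 FPKM) led. Their ranges over the mice overlapped, so their order is not resolved. The assembly factors, which build the complexes but are not part of them, were low, with a class median of 8.71 FPKM for complex I (8 Ndufaf genes), 5.02 for complex II (4 Sdhaf genes) and 4.30 for complex IV (9 genes, Cox10 to Cox20), against 42.4 for the 7 nuclear core subunits of complex I, 38.8 for its 31 accessory subunits, 53.3 for the 4 subunits of complex II, 68.1 for the 8 of complex III, 44.6 for the 17 of complex IV and 36.1 for the 17 members of complex V. Ndufa4 was counted with complex I by its symbol, although it is a complex IV subunit. The deposited FPKM did not follow counts over annotated length for every member. Ndufb5 and Ndufb10 had similar median counts (6078 and 6037) and median annotated lengths (625 and 629 bases), but 16.5 and 65.1 FPKM. Ranks and shares between genes by FPKM carry this limit, and its cause was not tested.

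**Figure D1:**
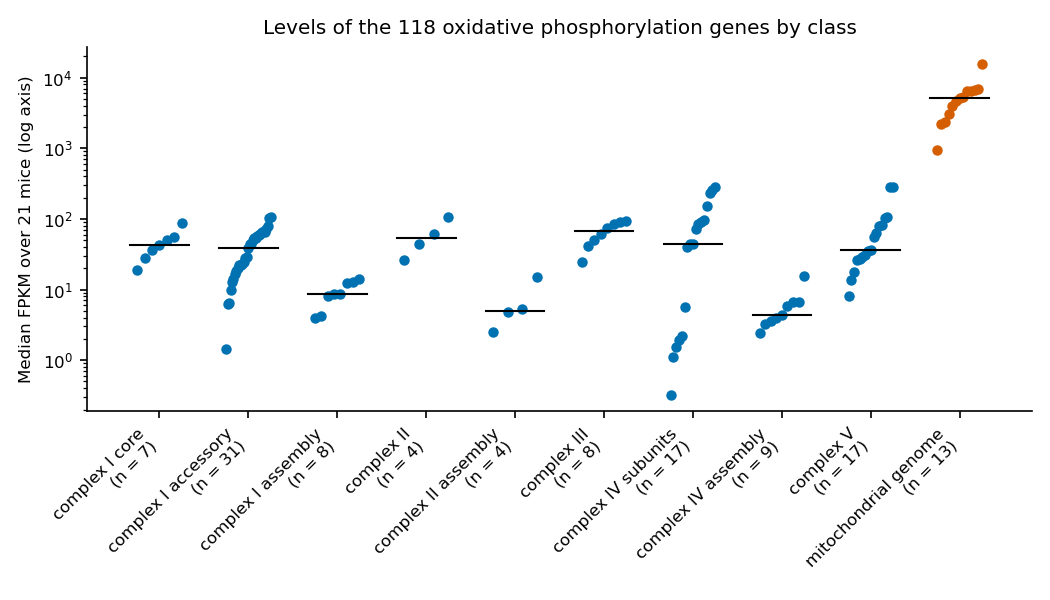
Median FPKM over 21 mice (y axis, log scale) of each member, by class on the x axis; a point is 1 gene and the line is the class median. The 13 mitochondrial-genome mRNAs sit between 954 and 15805 FPKM, above all 105 nuclear members, and the assembly factors lie lowest as classes.

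Complex IV has tissue forms of several subunits, and the forms known from liver and most other tissues made up nearly all of the mRNA here. By FPKM, Cox4i2, the hypoxia-related form, was 0.384% to 1.04% of Cox4i1 and Cox4i2 together. The heart and muscle forms were low as well. Cox6a2 was 1.55% to 3.63% of its pair with Cox6a1, Cox7a1 was 0.745% to 2.73% of its pair with Cox7a2, and Cox8b was 0 to 1.09% of its pair with Cox8a. Cox6b2, the testis form, was 0.975% to 2.17% of its pair with Cox6b1, and Ndufa4l2 was 0.527% to 1.92% of its pair with Ndufa4. These ranges are over all 21 mice. Cox8b had 0 counts in E4H 3 and 15 to 67 counts in the other mice.

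The mitochondrial mRNAs took 6.32% to 9.66% of all counts. The share was 8.09, 9.66 and 7.73% in the E2H mice, 7.35, 6.70 and 6.60% in the E3H mice and 7.74, 7.43 and 7.74% in the E4H mice. It was 7.84, 6.32, 7.38 and 6.51% in the PS/E2H mice, 7.42, 7.88, 7.73 and 7.13% in the PS/E3H mice and 7.14, 8.30, 8.0 and 8.12% in the PS/E4H mice. The highest mouse was E2H 2 and the lowest were PS/E2H 2 and PS/E2H 4. Over the nuclear members, the geometric mean CPM was 49.8, 64.6 and 48.4 in the E2H mice, 43.6, 40.8 and 39.4 in the E3H mice and 43.0, 41.7 and 43.1 in the E4H mice. It was 52.9, 55.9, 44.9 and 51.7 in the PS/E2H mice, 47.8, 45.2, 41.2 and 46.7 in the PS/E3H mice and 44.7, 54.1, 49.0 and 47.1 in the PS/E4H mice. All 3 E2H mice were above all E3H and E4H mice, whereas the 3 PS19 groups overlapped. In the bulk tissue fewer cells of a type and less RNA per cell cannot be told apart.

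The ratio of the mitochondrial to the nuclear geometric mean was 76.9, 77.2 and 73.3 in E2H mice, 78.5, 70.7 and 74.2 in E3H mice and 84.2, 83.6 and 83.4 in E4H mice. The PS/E2H mice were at 68.9, 50.9, 74.6 and 57.4, the PS/E3H mice at 73.0, 79.4, 84.0 and 69.4, and the PS/E4H mice at 72.3, 71.7, 75.7 and 75.7. PS/E2H 2 and PS/E2H 4 had the lowest ratios of the 21 mice, with the next lowest at 68.9 in PS/E2H 1, and the 3 E4H mice were above all other mice except PS/E3H 3. The ratio was not tested, since it is a score over the members.

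**Figure D2:**
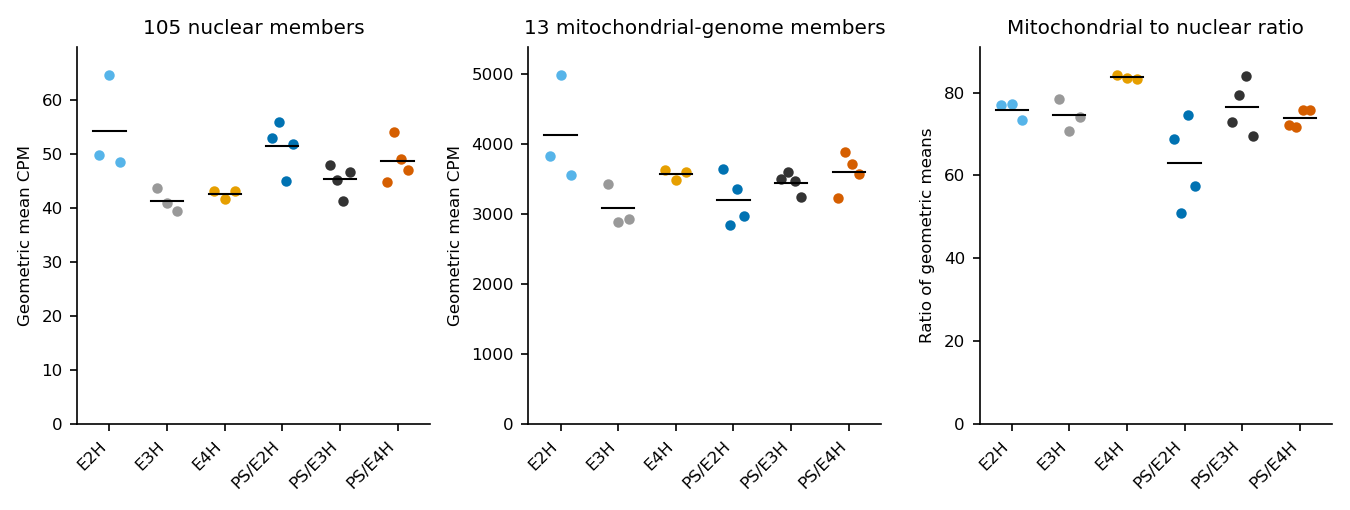
Geometric mean CPM of the 105 nuclear members, of the 13 mitochondrial-genome members and their ratio (y axes, from 0), by group on the x axis; a point is 1 mouse and the line is the group mean. E2H 2 is highest in both genomes (64.6 and 4981 CPM), while PS/E2H 2 and PS/E2H 4 have the lowest ratios (50.9 and 57.4).

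Some libraries stood apart in ways that also touch other genes. Relative to each gene's mean over all mice, E2H 2 deviated by 0.47 (log2, median over nuclear members) and by 0.53 over mitochondrial members. On the same scale, the median over all genes with transcripts of 4 kb or more was at -0.17 in this library. The members' transcripts are short, with a median annotated length of 718.5 bases for the nuclear and 784 for the mitochondrial members against 1890 over all genes tested. For this reason values without E2H 2 are given beside results that include the E2H group. Medians of other genes of the same length are given only for E2H vs E3H, PS/E2H vs PS/E3H and PS/E4H vs E4H. Markers of neurons, astrocytes, microglia and oligodendrocytes were all detected in every mouse (lowest count 207), as were those of endothelium, choroid plexus and ependyma (lowest counts 246, 32 and 45). Summed CPM of the 8 astrocyte markers was 3812 to 4444 in parental and 5453 to 7479 in PS19 mice, that of the 8 microglial markers 386 to 505 against 556 to 1042, and that of the 10 neuronal markers 7407 to 8013 against 6611 to 7884.

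E2H mice had higher values than E3H mice for nearly all members, but no single member passed the test. The log2 fold change was above 0 for 112 of 118 members, with a median of 0.41 over the nuclear and 0.41 over the mitochondrial members, against -0.0080 over all 20797 genes tested. In edgeR (quasi-likelihood test, p adjusted by Benjamini-Hochberg over all genes), 0 of 118 members had an adjusted p under 0.05 (background 0.178% of genes). Here and below, the backgrounds for adjusted and unadjusted p count genes in either direction. At an unadjusted p under 0.05 there were 93 members, all higher, or 78.8% against a background of 14.1%. DESeq2 with adjustment called 48 members, all higher, or 40.7% against 2.83%. All E2H mice were above all E3H mice for 97 members (82.2%, background 12.8%).

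By role, the median log2 fold change between E2H and E3H mice was 0.30 for the nuclear core subunits of complex I, 0.46 for its accessory subunits, 0.31 for complex II, 0.42 for complex III, 0.51 for complex IV subunits and 0.41 for complex V. The assembly factors were at 0.32 (complex I), 0.23 (complex II) and 0.28 (complex IV). The members with the highest values, chosen after their values were seen, were Ndufa3, a small accessory subunit of complex I (0.83), Atp5k, a membrane subunit of the ATP synthase (0.80), and Cox6a2 (0.78). Ndufa3 was at 31.2, 47.9 and 31.4 CPM in the E2H and 27.0, 18.7 and 16.2 CPM in the E3H mice. Atp5k was at 22.0, 33.8 and 23.8 CPM in the E2H and 19.2, 13.4 and 12.97 CPM in the E3H mice. For both genes the groups did not overlap, E2H 2 was the highest mouse and E3H 1 was closest to the E2H mice. The lowest values were those of Cox7b2 (-0.53) and Ndufa4l2 (-0.39), both near the low end of the members' levels. Succinate dehydrogenase, which is complex II, was at 0.10 for Sdha, its flavoprotein, 0.31 for Sdhb, its iron-sulfur subunit, and 0.31 and 0.37 for the membrane anchors Sdhc and Sdhd.

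The size of this difference rested in part on 1 library. Without E2H 2 the medians were 0.27 (nuclear) and 0.24 (mitochondrial), with 98 of 105 and 13 of 13 members above 0, and 98 members did not overlap between the remaining E2H mice and the E3H mice (background 16.5%). Genes of other functions with short transcripts also had a positive median. For transcripts under 700 bases the median was 0.13 over 2316 genes that are no members and 0.51 over 49 nuclear members, and for 2000 to 4000 bases it was -0.033 over 7078 other genes and 0.23 over 8 nuclear members. With a correction for transcript length the medians over nuclear and mitochondrial members were 0.30 and 0.29. No gene of the other lists passed the test either. The median was 0.47 over 88 cytosolic ribosomal protein genes, 0.27 over 78 mitochondrial ribosomal protein genes, 0.17 over 14 genes of the TCA cycle, 0.19 over 16 of glycolysis, 0.15 over 48 carriers and assembly factors outside the symbol rule, and -0.013 over 20 genes of mitochondrial transcription and biogenesis. Summed CPM of the oligodendrocyte markers was 6478 to 7185 in E2H and 4860.5 to 5362 in E3H mice, and that of neuronal markers overlapped, 7512 to 7904 against 7456 to 7953, and the part of any of these in the result was not tested.

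E4H and E3H mice differed less. The median was 0.057 over nuclear and 0.19 over mitochondrial members, with 96 of 118 above 0, and 0 members were called by edgeR (background 0.162%), 22 had an unadjusted p under 0.05 (18.6%, background 6.67%) and DESeq2 called 5 (4.24%, background 0.763%). Of these 22, 9 were among the 13 mitochondrial mRNAs. mt-Nd3, a small core subunit of complex I, had the highest value of the mitochondrial mRNAs (0.47) and mt-Co3 and mt-Co2 of complex IV the lowest (0.12 and 0.12).

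Relative to E2H mice (both groups also stand in the comparisons above), E4H mice had a median of -0.34 over nuclear and -0.19 over mitochondrial members, with 111 of 118 below 0. There were again 0 calls by edgeR (background 0.216%), 68 members at an unadjusted p under 0.05 (57.6%, background 12.4%), all lower, and 15 calls by DESeq2 (12.7%, background 1.56%). Without E2H 2 the medians were -0.20 and -0.063, with 4 of 13 mitochondrial members above 0. The lowest mitochondrial values were those of mt-Nd6 (-0.40), mt-Co2 (-0.28) and mt-Cytb (-0.28), and mt-Nd4l was nearest to 0 (-0.017).

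**Figure D3:**
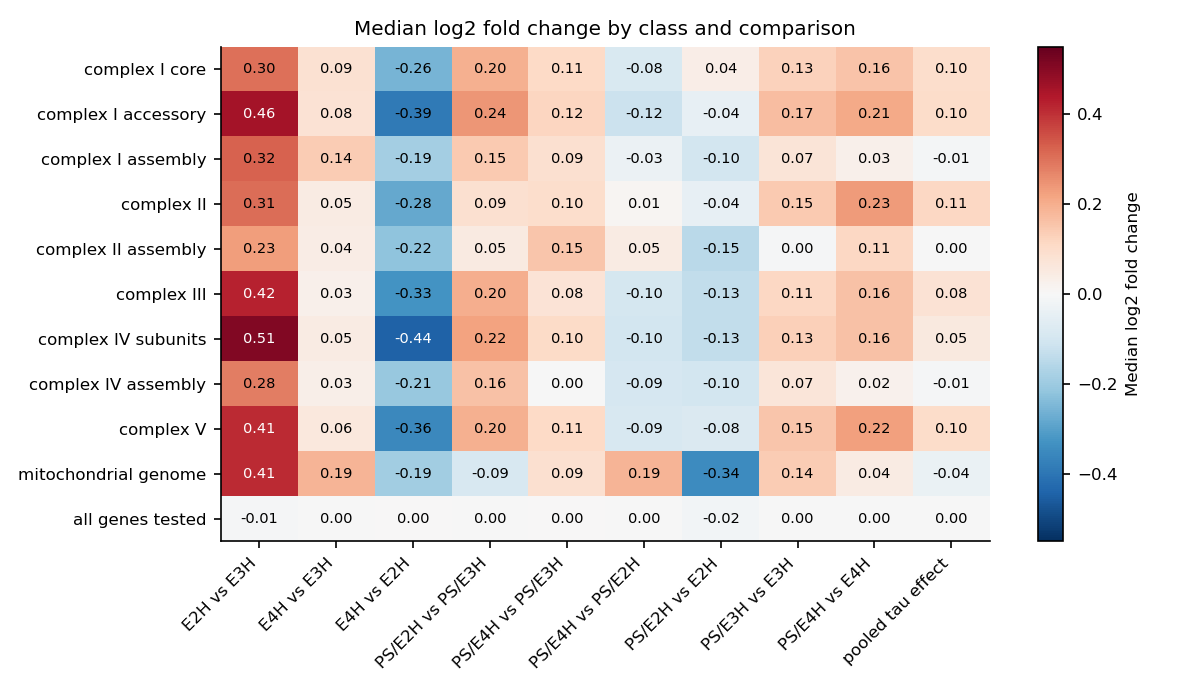
Median log2 fold change (colour and printed value) of each class of members and of all genes tested (rows) in each comparison (columns); the first group named is the numerator, and comparisons that share a group share its mice. In the E2H vs E3H column the classes of members run from 0.23 to 0.51, against -0.0080 over all genes, and the mitochondrial row is at -0.34 in PS/E2H vs E2H, where the nuclear classes lie between -0.15 and 0.04.

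Among paralysed mice, no member passed the test between APOE genotypes, and PS/E2H mice had higher nuclear and lower mitochondrial medians than PS/E3H mice, the latter not without 2 mice. Relative to PS/E3H, the PS/E2H median was 0.20 over nuclear members (99 of 105 above 0) and -0.086 over mitochondrial members (4 of 13 above 0). edgeR called 0 members (background 0.113%), 38 had an unadjusted p under 0.05 (32.2%, background 11.7%), 36 nuclear higher and 2 mitochondrial lower, and DESeq2 called 1 (0.847%, background 0.748%). The 36 were all subunits and none of the 21 assembly factors was among them. All PS/E2H mice were above all PS/E3H mice for 5 members (4.24%, background 2.60%). Without PS/E2H 2 and PS/E2H 4, which stand apart below, the medians were 0.11 and 0.0080, and 1 member had an unadjusted p under 0.05 (0.847%, background 3.91%). The highest value, a gene chosen after its values were seen, was that of Ndufa3, at 37.1, 43.0, 28.6 and 35.4 CPM in PS/E2H and 24.2, 25.3, 20.6 and 26.5 CPM in PS/E3H mice (log2 fold change 0.57, SE 0.128, adjusted p = 0.283, edgeR), whose groups did not overlap. Transcript length moved with these values as well, since the median was 0.22 over 49 nuclear members and 0.072 over 2195 other genes with transcripts under 700 bases.

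PS/E4H mice differed from PS/E3H mice by a median of 0.10 over nuclear and 0.088 over mitochondrial members. There were 0 calls by edgeR (background 0.0197%), 6 at an unadjusted p under 0.05 (5.08%, background 6.51%) and 0 by DESeq2 (background 0.172%). From PS/E2H mice they differed by -0.088 and 0.19, which became -0.015 and 0.060 without PS/E2H 2 and PS/E2H 4, with 0 calls by edgeR (background 0.119%), 9 at an unadjusted p under 0.05 (7.63%, background 12.3%) and 0 by DESeq2 (background 1.28%). The shares at the unadjusted p were near or below the background in both.

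The mitochondrial mRNAs set 2 PS/E2H mice apart. mt-Nd4l, a small membrane subunit of complex I, was at 667, 299.8, 726 and 443 CPM in PS/E2H mice and 759, 912 and 721 CPM in E2H mice. It was at 684, 575 and 672 CPM in E3H, 768, 794 and 788 CPM in E4H, 734, 791, 805 and 673 CPM in PS/E3H and 684, 779.7, 723 and 657 CPM in PS/E4H mice. PS/E2H 2 and PS/E2H 4 were below every other mouse, with 17544 and 26279 counts against at least 35892 in the other 19, while PS/E2H 1 and PS/E2H 3 lay within the range of the rest. mt-Atp8, the other short reading frame that overlaps its neighbour, was at 1172, 742, 1113 and 913 CPM in PS/E2H mice, and the same 2 mice were again the lowest of the 21. As log2 deviation from each gene's median mouse, PS/E2H 2 was at -1.27 for mt-Nd4l, -0.68 for mt-Atp8, -0.54 for mt-Nd5 and -0.30 for mt-Nd4, but at 0.061 for mt-Co2, 0.055 for mt-Nd6 and -0.035 for mt-Co3. PS/E2H 4 was at -0.71 for mt-Nd4l, -0.38 for mt-Atp8, -0.37 for mt-Nd4 and -0.35 for mt-Nd5 and mt-Nd2, and at -0.049 for mt-Co2. For mt-Co1, the third complex IV mRNA, they were at -0.28 and -0.15. Taken from each gene's mean over the 21 mice instead, nuclear members deviated in the opposite direction in these mice, by 0.30 and 0.12 (median, log2). On that scale the median over all genes with transcripts of 4 kb or more was at -0.14 and -0.056.

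**Figure D4:**
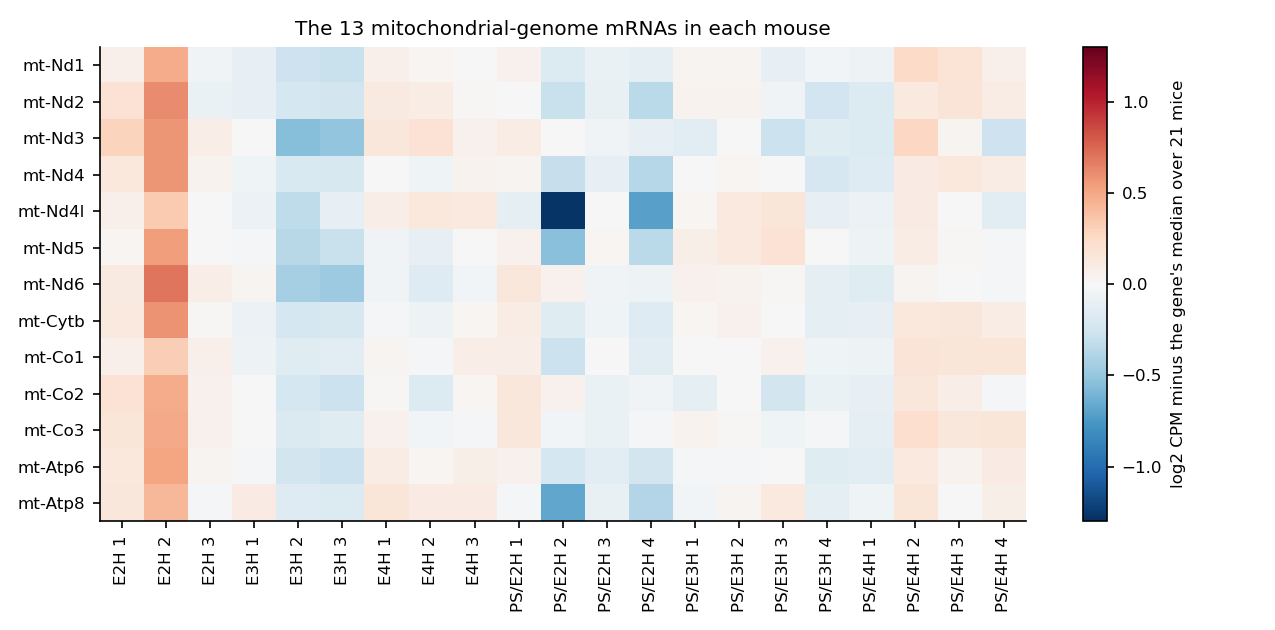
log2 CPM of each of the 13 mitochondrial-genome mRNAs (rows) in each of the 21 mice (columns), minus the gene's median mouse (colour scale). E2H 2 is above the median in all 13 (0.32 to 0.69), and PS/E2H 2 and PS/E2H 4 reach -1.27 and -0.71 in mt-Nd4l.

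The effect of the tau transgene with paralysis was first taken within each APOE genotype. In PS/E2H relative to E2H mice the median was -0.34 over mitochondrial members, with 0 of 13 above 0, and -0.079 over nuclear members. edgeR called 0 members (background 0.752%), 12 had an unadjusted p under 0.05 (10.2%, background 10.7%), of which 10 were mitochondrial, and DESeq2 called 0 (background 3.35%). mt-Nd4l (-0.58), mt-Atp8 (-0.47), mt-Nd4 (-0.45) and mt-Nd2 (-0.45) were lowest and mt-Co2, mt-Co1 and mt-Co3, the complex IV mRNAs, nearest to 0 (-0.23, -0.24 and -0.25). Both the E2H and the PS/E2H group hold libraries that stand apart. Without E2H 2 the medians were -0.20 (mitochondrial) and 0.081 (nuclear), so the nuclear median changed sign, and 7 members had an unadjusted p under 0.05 (5.93%, background 11.9%), of which 2 were mitochondrial. Without PS/E2H 2 and PS/E2H 4 they were -0.24 and -0.16, with 1 member at that p (0.847%, background 9.77%).

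In PS/E3H relative to E3H mice 1 member passed the test. This was Ndufa9, an accessory subunit of complex I that holds NADPH in the arm facing the matrix (chromosome 6, 126821721 to 126849136), which rose (log2 fold change 0.28, SE 0.0588, adjusted p = 0.0249, edgeR). It made 0.847% of the members, against a background of 5.37%. DESeq2 called 7 members, 6 higher and 1 lower (5.93%, background 11.6%). The median was 0.13 over nuclear and 0.14 over mitochondrial members, with 104 of 118 above 0. With 1 mouse left out at a time, the call of Ndufa9 failed in 4 of 7 fits, with log2 fold changes of 0.26 to 0.30 over the 7, and the 4 left out E3H 1, E3H 2, E3H 3 or PS/E3H 4. Astrocyte (7 of 8), microglial (6 of 8) and oligodendrocyte markers (7 of 8) were higher in this comparison as well, with summed oligodendrocyte CPM of 4860.5 to 5362 in E3H and 6501 to 6936 in PS/E3H mice, and their part in the result was not tested.

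In PS/E4H relative to E4H mice 12 members rose and 0 fell, all nuclear subunits. This share (10.2%) was below the background of 15.6% of genes called in either direction. Of the 20844 genes tested, 1797 were called higher and 1455 lower. The list held 8 subunits of complex I, 1 of complex II and 3 of complex IV, and no assembly factor and no mitochondrial mRNA. The median was 0.16 over nuclear members (93 of 105 above 0) and 0.043 over mitochondrial members (8 of 13 above 0). DESeq2 called 27 members, all higher (22.9%, background 21.6% in either direction). All PS/E4H mice were above all E4H mice for 26 members (22.0%, background 15.0%, higher only). With a fold of at least 2 only Cox7a1 was left, 1 of 118 members (background 2.98%).

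The complex I members that rose were Ndufs7, the core subunit with the last iron-sulfur cluster before ubiquinone (log2 fold change 0.27, SE 0.0728, adjusted p = 0.0304, edgeR), and the accessory subunits Ndufa9, Ndufb5, Ndufb8, Ndufb11, Ndufc1, Ndufv3 and Ndufa2, with log2 fold changes of 0.27 to 0.48. Ndufb5, in the membrane arm, was at 75.6, 70.8 and 87.4 CPM in E4H and 90.4, 113, 101 and 97.7 CPM in PS/E4H mice (log2 fold change 0.36, SE 0.0924, adjusted p = 0.0256, edgeR), and the groups did not overlap. In complex II, Sdhb (chromosome 4, 140961203 to 140979193) was at 84.9, 85.6 and 105 CPM in E4H and 102, 127, 112 and 120.0 CPM in PS/E4H mice (log2 fold change 0.32, SE 0.0960, adjusted p = 0.0464, edgeR). Here the groups overlapped, since E4H 3 lay above PS/E4H 1. In complex IV, Cox4i1, the subunit through which ATP slows the enzyme, was at 349, 338 and 397 CPM in E4H and 404, 509.6, 453 and 429 CPM in PS/E4H mice (log2 fold change 0.31, SE 0.0889, adjusted p = 0.0428, edgeR). Cox7a2 had the smallest change of the 12 (log2 fold change 0.24, SE 0.0709, adjusted p = 0.0477, edgeR).

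Cox7a1, the heart and muscle form (chromosome 7, 30184144 to 30186078), had the largest fold change, 2.29-fold, at a low level. It was at 0.521, 0.849 and 0.403 CPM in E4H and 1.54, 1.45, 1.15 and 1.31 CPM in PS/E4H mice (log2 fold change 1.19, SE 0.322, adjusted p = 0.0325, edgeR), and the groups did not overlap. The counts behind these were 35, 64 and 30 in E4H and 95, 88, 71 and 84 in PS/E4H mice. In the other genotypes it was at 0.730, 1.68 and 0.908 CPM in E2H and 1.5, 1.45, 1.46 and 1.06 CPM in PS/E2H mice, and at 0.868, 1.15 and 0.674 CPM in E3H and 1.11, 1.45, 0.813 and 1.20 CPM in PS/E3H mice, with overlap in both pairs of groups. As a share of its pair with Cox7a2 (FPKM) it was 0.745% to 1.68% in E4H and 1.91% to 2.73% in PS/E4H mice.

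The 12 calls depended on single mice. Without PS/E4H 1 there were 28, without PS/E4H 3 there were 5, without E4H 2 there was 1, and without E4H 1 or PS/E4H 2 there were 0. The share of all genes called in these fits is not given here, so the counts cannot be set against a background. Markers of other cells moved with this comparison, as 7 of 8 astrocyte markers, 7 of 8 microglial markers and 6 of 8 oligodendrocyte markers were higher, with 1 of 6 endothelial, 1 of 5 ependymal and 0 of 7 choroid plexus markers, and 3 of 10 neuronal markers were lower and 2 higher. Summed microglial marker CPM was 386 to 402 in E4H and 851 to 1042 in PS/E4H mice, and their part in the result was not tested. Of the other lists, 64 of 88 cytosolic ribosomal protein genes were higher, 6 of 78 mitochondrial ribosomal protein genes higher, 5 of 48 carriers and factors outside the symbol rule higher and 1 lower, 2 of 14 TCA cycle genes higher (Idh2 and Suclg2), 2 of 16 glycolysis genes higher and 3 lower, and 1 of 20 genes of mitochondrial transcription and biogenesis lower (Polg). The median of transcripts under 700 bases was 0.060 over other genes and 0.20 over nuclear members.

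Over all 21 mice, with the 3 differences between PS19 and parental mice averaged, 7 members rose and 2 fell, or 7.63% against a background of 21.8%. DESeq2 also gave 7 higher and 2 lower (background 24.4%), and 0 of 118 had a fold of at least 2 (background 2.82%). The median was 0.085 over nuclear, -0.036 over mitochondrial and -0.0033 over all genes. Ndufa9 had the smallest adjusted p (log2 fold change 0.22, SE 0.0494, adjusted p = 0.00297, edgeR). It was at 120.2, 147 and 117 CPM in E2H and 142, 152, 117 and 132 CPM in PS/E2H mice, which overlapped. It was at 103, 97.9 and 103 CPM in E3H and 127, 119.9, 122 and 127 CPM in PS/E3H mice, and at 107, 100 and 117 CPM in E4H and 123, 133, 139 and 130.2 CPM in PS/E4H mice, with no overlap in either.

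Other members that rose in this fit included Ndufv1, a core subunit of complex I, Ndufa2, an accessory subunit, Sdha of complex II, Cox7a1 of complex IV and Atp5a1, the alpha subunit of the ATP synthase. The log2 fold changes of these were 0.18 for Ndufv1, 0.28 for Ndufa2, 0.11 for Sdha, 0.62 for Cox7a1 and 0.18 for Atp5a1, with adjusted p of 0.0122 to 0.0497 (edgeR). Atp5a1 was at 827, 848 and 887 CPM in E3H and 1026, 911, 932 and 1017 CPM in PS/E3H mice, with no overlap, and at 877, 831 and 966 CPM in E4H and 961, 1074, 1065 and 1078 CPM in PS/E4H mice, where E4H 3 lay above PS/E4H 1. In E2H it was at 939, 1164 and 912 CPM and in PS/E2H at 1103, 1169, 973 and 1102 CPM, with overlap.

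The 2 members that fell were Atp5s, a factor tied to the ATP synthase by its symbol (chromosome 12, 69724950 to 69744660), and Cox15, which makes heme A for complex IV (chromosome 19, 43733254 to 43753000). Atp5s was at 19.2, 22.0 and 20.8 CPM in E2H and 17.3, 13.8, 17.7 and 15.4 CPM in PS/E2H mice (over all 21 mice, log2 fold change -0.21, SE 0.0513, adjusted p = 0.00621, edgeR). It was at 19.0, 17.6 and 19.1 CPM in E3H and 17.5, 16.3, 16.8 and 15.1 CPM in PS/E3H mice, and at 17.9, 19.4 and 17.6 CPM in E4H and 16.8, 17.6, 17.3 and 17.6 CPM in PS/E4H mice. The PS19 mice were below their own parental group without overlap in each line, although the highest PS/E3H and PS/E4H mice all but touched the lowest E3H and E4H mice. Cox15 was at 34.1, 35.6 and 36.8 CPM in E3H and 30.9, 30.6, 29.3 and 29.6 CPM in PS/E3H mice (log2 fold change -0.12, SE 0.0428, adjusted p = 0.0477, edgeR over all 21 mice), without overlap, whereas E4H and PS/E4H mice, at 28.9, 31.3 and 30.4 and 30.6, 27.7, 31.4 and 30.5 CPM, overlapped. By size alone, Cox7b2 (0.48), Cox8b (0.34) and Cox6b2 (0.33) followed Cox7a1 at the upper end and Ndufa4l2 (-0.26) and Cox20 (-0.20) were at the lower end, none of which passed the test.

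The calls of Ndufa9, Atp5a1, Atp5s and Cox7a1 held in all 21 fits that left out 1 mouse, and those of Sdha, Ndufv1, Ndufa2 and Cox15 failed in 8 to 14 of them. The number of members called ranged from 4 to 38, with 38 without E2H 2, 20 without PS/E2H 3, 4 without E2H 1, E3H 2 or E4H 2, and 5 without E2H 3, E4H 1, PS/E2H 1 or PS/E4H 2. The share of all genes called without these mice is not given here. Whether the 38 calls without E2H 2 lie above or below such a background is therefore not shown. All 8 astrocyte, 7 of 8 microglial and 5 of 8 oligodendrocyte markers were higher in this fit, with 2 of 6 endothelial, 2 of 7 choroid plexus and 1 of 5 ependymal markers, and 5 of 10 neuronal markers were lower and 2 higher, and their part in the result was not tested.

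**Figure D5:**
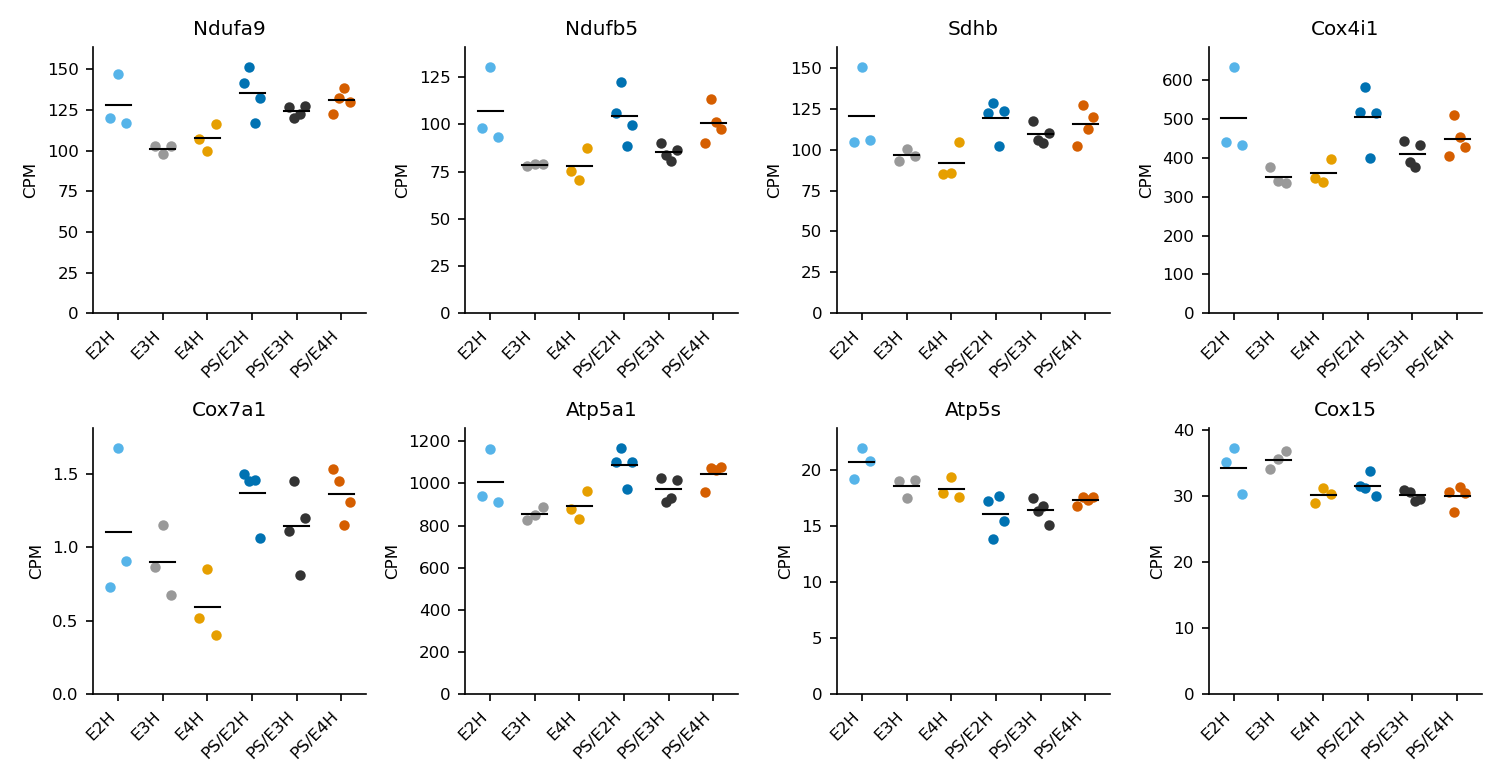
CPM (y axes, from 0) of 8 members by group (x axis); a point is 1 mouse and the line is the group mean. Ndufa9, Ndufb5, Sdhb, Cox4i1, Cox7a1 and Atp5a1 are higher in PS/E4H than in E4H mice on average, Atp5s is lower in PS/E2H than in E2H mice, and E2H 2 is the highest E2H mouse in all 8 panels.

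The difference between genotypes in the tau effect was tested as an interaction in the same fit. In each of the 3 interactions 0 of 118 members and 0% of 22863 genes passed with edgeR. For APOE2 against APOE3, 24 members had an unadjusted p under 0.05 (20.3%, background 6.80%), all lower, and DESeq2 called 0 (background 0.0394%). These 24 held 12 of the 13 mitochondrial mRNAs and 12 of 105 nuclear members, and the medians were -0.54 and -0.21. mt-Nd5, a core proton-pumping subunit of complex I, had the smallest p (log2 fold change -0.71, SE 0.188, adjusted p = 0.696, edgeR), and mt-Nd4l the lowest mitochondrial value (-0.80). For APOE4 against APOE2 the medians were 0.35 and 0.28, with 33 members at an unadjusted p under 0.05 (28%, background 11.4%), all higher, and 0 calls by DESeq2 (background 0.866%). For APOE4 against APOE3 they were -0.16 and 0.048, with 2 members (1.69%, background 2.98%) and 0 calls by DESeq2 (background 0.0481%). The interactions with APOE2 share the E2H and PS/E2H mice, which include the libraries that stood apart. Without E2H 2 the APOE2 against APOE3 medians were -0.35 (mitochondrial) and -0.072 (nuclear), with 13 members at an unadjusted p under 0.05 (11.0%, background 6.02%), of which 11 were mitochondrial. The APOE4 against APOE2 medians without E2H 2 were 0.22 and 0.12, with 4 members at that p (3.39%, background 8.60%). Without PS/E2H 2 and PS/E2H 4 the medians were -0.40 and -0.29 for APOE2 against APOE3 and 0.27 and 0.34 for APOE4 against APOE2. For APOE2 against APOE3, 35 members then had an unadjusted p under 0.05 (29.7%), of which 12 were mitochondrial. For APOE4 against APOE2 there were 40 (33.9%), of which 2 were mitochondrial. The share over all genes in these fits is not given here.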

How the data were processed

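Forebrain poly(A) RNA was sequenced paired-end on an Illumina NovaSeq after a stranded TruSeq library preparation, with 1 library for each of 21 mice. Per the labels, reads were trimmed with cutadapt, aligned with HISAT2 to GRCm38.p5 and assembled with StringTie with an Ensembl annotation. The authors deposited raw counts per gene, which were tested here as deposited, and FPKM values per gene from StringTie, which the authors scaled for depth and transcript length and which were used here for levels between genes and in 1 alternative. How fragments shared by overlapping mitochondrial genes or by nuclear copies of them were counted is not given in the sources used here.

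Groups were taken from the labels. Pairs of groups were compared with edgeR 4.0.16 (R 4.3.3; TMM, filterByExpr, quasi-likelihood test, Benjamini-Hochberg adjustment over all genes tested, called at 0.05), and the effect averaged over APOE lines and the interactions came from 1 fit of all 21 mice. DESeq2 1.42.0, limma 3.58.1 on log2(FPKM + 1), no filter, other size factors, library sizes without mt- genes, a transcript length correction, a replicate block and leaving out each mouse were alternatives. Libraries held 59265459 to 75932183 counts. No 2 of the 27 pairs of mice within groups had identical counts, and the edgeR script was tested on simulated data. Gene positions came from GENCODE release M21 (GRCm38), in which 260 of 55401 identifiers had no entry, and promoters from RefSeq (GRCm38.p6). Tables were handled with Python 3.11.15, pandas 2.3.3, NumPy 2.4.6, SciPy 1.17.1 and matplotlib 3.10.9.

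The members and gene lists were chosen with earlier results of these data known. Genes named were the mitochondrial mRNAs, up to 10 called members per direction with the smallest adjusted p in each comparison, the 6 nuclear members with the largest changes each way averaged over lines, Sdha to Sdhd, the isoform pairs, the member of each complex with the most counts and the members nearest the count limit. A result that these rules would name is not reported here. P-values measure the spread between mice.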

Additional observations from a re-analysis of the deposited data

Results flagged for a closer look

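Of 159 groups of 4 PS19 mice, counted once for each named member and each summary per mouse, 7 held a mouse far from the other 3 by Dixon's test (critical value 0.829), and chance flags about 5% of such groups. PS/E4H 1 was low for Atp5a1 (961 CPM against 1065 to 1078 CPM), mt-Co1 (24725 CPM against 28758 to 29025 CPM) and mt-Nd4 (6163 CPM against 7373 to 7570 CPM). PS/E3H 4 was low for mt-Atp6 (4317 CPM against 4779 to 4824 CPM) and mt-Nd4 (5945 CPM against 6899.7 to 7007 CPM). PS/E2H 2 was high for Cox6b2 (3.95 CPM against 2.75 to 2.94 CPM), and PS/E2H 4 was low for Cox7a1 (1.06 CPM against 1.45 to 1.5 CPM). In 0 of 354 pairs of APOE lines compared did all mice of 1 line move one way and all mice of the other line the opposite way.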

How the results depend on the processing

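The log2 fold changes of the members called were recomputed gene by gene, and none of them changed direction under the alternatives run, while 4 medians over members did. These were the nuclear median between PS/E2H and E2H (0.081 without E2H 2) and 3 mitochondrial medians near 0, between PS/E2H and PS/E3H (0.0080 without PS/E2H 2 and PS/E2H 4), between PS/E4H and E4H (-0.0076 with the length correction) and averaged over lines (0.0034 without E2H 2). The number of members called moved. DESeq2 called 48 members between E2H and E3H, 5 between E4H and E3H, 15 between E4H and E2H, 1 between PS/E2H and PS/E3H, 7 between PS/E3H and E3H and 27 between PS/E4H and E4H. One fit of all 21 mice called 3 members between E2H and E3H, 3 between PS/E2H and E2H, 0 between PS/E3H and E3H and 3 between PS/E4H and E4H. A fold of at least 2 left 0 members between PS/E3H and E3H, 1 between PS/E4H and E4H and 0 averaged over lines. With no filter on low counts there were 0 between PS/E4H and E4H and 5 averaged over lines, and the length correction left 7 between PS/E4H and E4H. Without both PS/E2H mice low in mt-Nd4l, chosen after their counts were seen, 5 were called averaged over lines. The share of all genes called is not given here for pairs of groups in the fit of all 21 mice or with the length correction. It is also not given with no filter, with the replicate block below or with mice left out. Those counts cannot be set against a background. The causes were not tested.

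Same-numbered mice of different groups did not deviate together (48 pairs, median r = -0.017, highest 0.096, 0 over 0.1). The values gave no sign that the numbers pair the mice, but low correlations cannot exclude a shared litter, cage or processing. The main fits took the mice as unpaired. With the replicate block 0 members were called between PS/E3H and E3H, 1 between PS/E4H and E4H and 5 averaged over lines.

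Leaving out 1 mouse gave medians between E2H and E3H of 0.27 to 0.50 (nuclear) and 0.24 to 0.50 (mitochondrial), nuclear medians of -0.41 to -0.20 between E4H and E2H and of -0.15 to 0.081 between PS/E2H and E2H. It gave 0 to 1 calls between E4H and E3H (1 without E3H 1), 0 to 3 between PS/E3H and E3H, 0 to 28 between PS/E4H and E4H and 4 to 38 averaged over lines. Cox7b2 and Cox8b were each at 0 counts in 1 mouse, and their changes did not pass the test.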
